A study of Mus musculus with 16 samples.

Results

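CD11b+ myeloid cells were taken from the spleens of 4 untreated (naive) C57BL/6 mice and of 4 C57BL/6 mice that had received BALB/c spleen cells and no other agent, and the mRNA of 734 immune genes was counted in each mouse. All 8 mice were wild type, and the spleens of the injected mice were taken on day 7. Samples were selected by their titles and treatment fields, and they make up 8 of the 16 samples of the series; the other 8 mice received CTLA4-Ig, with or without EPO, after the same cells. In the tests below they enter through each gene's shared estimate of spread, and they are compared directly only in a check of the labels. Ages are not given in the labels. C57BL/6 and BALB/c are inbred strains that differ at the MHC, so the injected cells are allogeneic to the host.

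Some limits belong to the groups themselves. The naive mice received no injection, so the effect of allogeneic cells cannot be told apart from that of an injection of any cells. In the labels the BALB/c cells lacked T cells and were given i.p., whereas the study's results give the route as i.v. The profiled cells were enriched by positive selection on CD11b (the study's results call them CD11b+CD11c-), and nothing in the labels says how pure they were. One protocol field of the labels pairs the letter codes of the 2 groups the other way round from the titles and treatment fields. If that field were right, every direction given below would turn. As a measured fact beside this conflict, mice that received CTLA4-Ig after the same cells differed from the mice labelled as given allogeneic cells alone in 0 genes (limma, adjusted *P* value under 0.05; 70 genes at an unadjusted one), and from the mice labelled naive in 506 genes (521 unadjusted).

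CD11b, the integrin αM chain, is carried by neutrophils, monocytes, many macrophages, a part of the dendritic cells and eosinophils, and more weakly by some lymphocytes. Neutrophils are short-lived phagocytes filled with the calcium-binding proteins S100A8 and S100A9 and with granule enzymes. Monocytes circulate and can become macrophages or dendritic cells. Dendritic cells and B cells present peptides on MHC class II to helper T cells, which is a central route of recognition of a foreign graft. In a bulk sample such as this, fewer cells of a type and less RNA per cell cannot be told apart.

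The levels of 2 groups of genes carried much of the comparison. In naive mice, neutrophil genes took up between 28% and 49.9% of all counts, and after allogeneic cells between 2.51% and 6.89%. Genes of MHC class II and its loading took up between 4.71% and 9.10% in naive mice and between 24.9% and 27.5% after allogeneic cells. Shares of a total are linked, so a smaller share of neutrophil genes by itself raises the shares of the other genes. Each of the 7 measured T cell genes and each of the 3 measured B cell genes was higher after allogeneic cells, from low levels. The promoters of 4 genes from the neutrophil and class II groups (*Elane* from the primary granule list) are shown here because neutrophil and class II genes moved most as shares of all counts. They are RefSeq promoters of build GRCm38.p6, from 250 bases before to 50 bases after the transcription start, each printed 5′ to 3′ on the strand of its gene. For *H2-Aa* (chr17:34287774-34288073, minus strand) and *H2-Eb1* (chr17:34305617-34305916, plus strand), which encode chains of the class II molecules, capitals mark the letters GATTGG or their complement, the core of the Y box of class II promoters. For *S100a8* (chr3:90668821-90669120, plus strand) and *Elane* (chr10:79886062-79886361, plus strand, neutrophil elastase), capitals mark GAGGAAGT or its complement, a form of the site that PU.1 and other ETS factors bind.
H2-Aa: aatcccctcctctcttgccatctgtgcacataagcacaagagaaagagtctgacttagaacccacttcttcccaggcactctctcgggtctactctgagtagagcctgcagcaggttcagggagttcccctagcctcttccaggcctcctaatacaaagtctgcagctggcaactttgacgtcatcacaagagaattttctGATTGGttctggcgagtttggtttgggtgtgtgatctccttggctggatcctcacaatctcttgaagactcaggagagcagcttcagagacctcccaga
H2-Eb1: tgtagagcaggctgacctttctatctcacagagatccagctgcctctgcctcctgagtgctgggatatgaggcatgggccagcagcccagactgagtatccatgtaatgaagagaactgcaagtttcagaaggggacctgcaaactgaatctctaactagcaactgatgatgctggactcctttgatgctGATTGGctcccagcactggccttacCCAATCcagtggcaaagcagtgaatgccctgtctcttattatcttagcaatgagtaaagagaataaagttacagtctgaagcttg
S100a8: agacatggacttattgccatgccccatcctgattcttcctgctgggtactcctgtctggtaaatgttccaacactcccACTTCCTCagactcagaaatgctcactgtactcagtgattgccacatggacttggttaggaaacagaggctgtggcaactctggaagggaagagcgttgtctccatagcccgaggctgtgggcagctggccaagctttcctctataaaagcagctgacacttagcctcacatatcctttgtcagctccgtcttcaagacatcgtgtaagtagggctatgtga
Elane: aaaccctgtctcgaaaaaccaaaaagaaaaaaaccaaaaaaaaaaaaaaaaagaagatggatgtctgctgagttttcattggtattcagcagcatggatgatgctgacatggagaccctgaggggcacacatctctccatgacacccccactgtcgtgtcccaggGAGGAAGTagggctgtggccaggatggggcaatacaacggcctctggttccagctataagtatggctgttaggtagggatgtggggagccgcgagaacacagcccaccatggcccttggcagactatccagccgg
The match in *H2-Aa* begins 49 bases before the start of transcription, and those in *H2-Eb1* begin 60 and 35 bases before it. The letters GATTGG occur in the promoters of 6 of the 6 genes of MHC class II and its loading that have an entry (*H2-Aa*, *H2-Eb1*, *H2-DMa* in 1 of its entries, *H2-DMb1*, *H2-DMb2* and *H2-Ob*), against 16.1% of 32851 mouse promoters of the same length. GAGGAAGT occurs in 5 of the 12 neutrophil genes that have an entry (*S100a8*, *Mmp8*, *Ly6g*, *Mpo* and *Elane*), against 3.2% of all promoters. A form of the X box of class II promoters occurs in *H2-Eb1* and in 0.07% of all promoters. These are matches of letters on either strand among 13 motifs searched. The others were TTGCNNAA for C/EBP, GAGGAA for ETS factors, CTGATTGG for the Y box, and CCTAGCAA and GCAACAG for the X box. TGACTCA and TGANTCA were searched for AP-1, and by name 2 forms of the NF-κB site and 1 of the interferon-stimulated response element. Of these others, CTGATTGG occurs in 2 of the 6 class II genes (*H2-Aa* and *H2-Eb1*), against 4.1% of all promoters. TGACTCA occurs in 1 of the 6 (5.2%) and TGANTCA in 2 (7.81%). Of the 12 neutrophil genes, 3 hold TTGCNNAA (10.8% of all promoters) and 8 hold GAGGAA (28.3%). Of the X box forms among these others, CCTAGCAA occurs in *H2-Ob* (1.36% of all promoters) and GCAACAG in 0 of the 6 class II genes (5.48%). Of the NF-κB forms, 1 occurs in *H2-Aa* (1.2%), and the interferon form occurs in 0 of the 6 (3.44%). Several motifs lie within one another, and binding was not measured.

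Values are given on 2 scales, because the scale of the deposited table differs between the groups. The deposited values are log2 levels, and in each mouse they are whole counts, multiplied by 1 factor common to all genes, on the log2 scale. The factor lay between 1.27 and 1.85 in naive mice and between 0.628 and 0.759 after allogeneic cells, without overlap (exact two-sided permutation test, *P* = 0.0286, the smallest value that 4 against 4 mice can give). The totals of the recovered counts did not show this division, with 562760 to 843830 counts in naive mice and 700091 to 843363 after allogeneic cells (exact permutation test, *P* = 0.8). The median gene therefore stood at 7.26 ± 0.08 (SD, n = 4) in naive mice and at 6.53 ± 0.04 after allogeneic cells on the deposited log2 scale. The second scale, called centred below, subtracts from each mouse its own median. *Dusp1*, a phosphatase gene among the most abundant of the panel, shows what the choice does. It had a mean of 23247 recovered counts in naive mice and 23778 after allogeneic cells, yet differed by -1.10 on the deposited log2 scale and by -0.37 on the centred scale, called lower on both (limma, adjusted *P* values 1.02e-07 and 0.0017), and by -0.02 with the counts scaled to their totals, where it was not called.

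Mice of a group resembled each other more than mice of the other group. Pearson's r across the 734 genes, which are not independent replicates, lay between 0.983 and 0.988 for pairs of mice after allogeneic cells, between 0.966 and 0.987 for pairs of naive mice and between 0.881 and 0.938 for pairs across the groups. No pair agreed within sampling noise. Naive replicate 1 stood at an end of the naive group, with the highest share of neutrophil counts, and allo replicate 1 was the mouse of its group with the highest share. Counting calls without naive replicate 1 gave 409 lower and 79 higher genes as deposited.

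**Figure D1:**
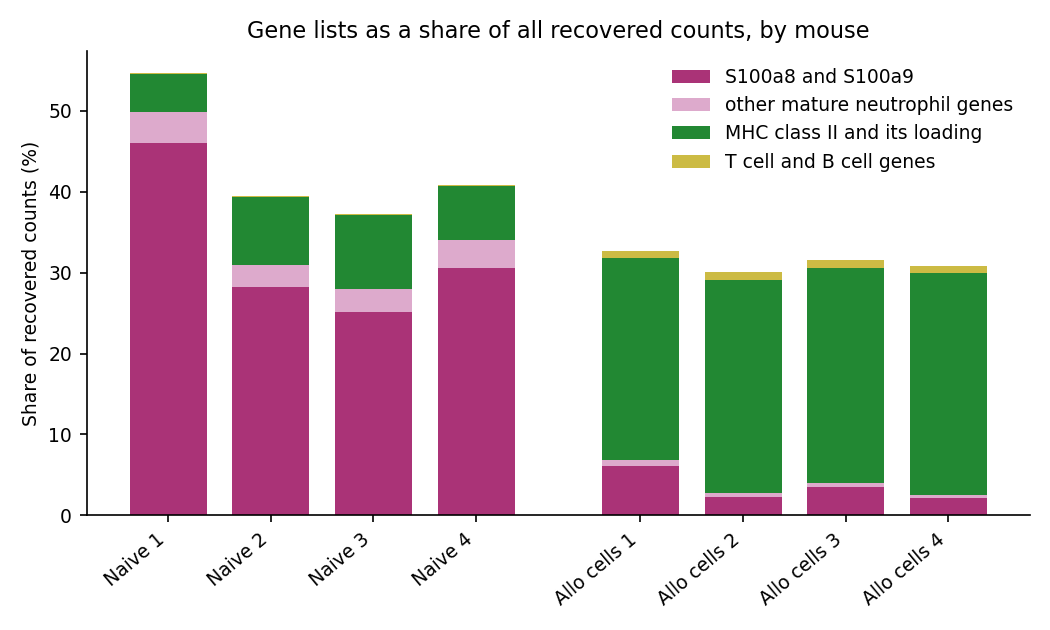
Share of all recovered counts (%, vertical axis) taken in each of the 8 mice (horizontal axis) by *S100a8* and *S100a9*, the other mature neutrophil genes, the genes of MHC class II and its loading, and T cell and B cell genes, stacked. Neutrophil genes take up 28% to 49.9% in the naive mice and 2.51% to 6.89% after allogeneic cells.

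As deposited, 516 of 734 genes passed the threshold (limma, adjusted *P* value under 0.05). Of all genes tested, 11.9% (87) were higher and 58.4% (429) were lower after allogeneic cells, and the median difference over all genes was -0.65 on the log2 scale. After centring, 438 genes differed, 33.0% (242) higher and 26.7% (196) lower, with a median difference over all genes of 0.08. These percentages are the background against which the counts of the gene lists below stand. The 87 genes higher as deposited were higher after centring as well, and the 196 genes lower after centring were lower as deposited as well, so 283 genes had the same direction on both scales. A further 205 genes were lower as deposited and not called after centring, 127 were not called as deposited and higher after centring, 28 were lower as deposited and higher after centring, and 91 were called on neither scale. Beside these percentages, the values of the 2 groups did not overlap in 375 genes with allogeneic cells below and 74 above as deposited, and in 174 below and 218 above after centring.

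**Figure D2:**
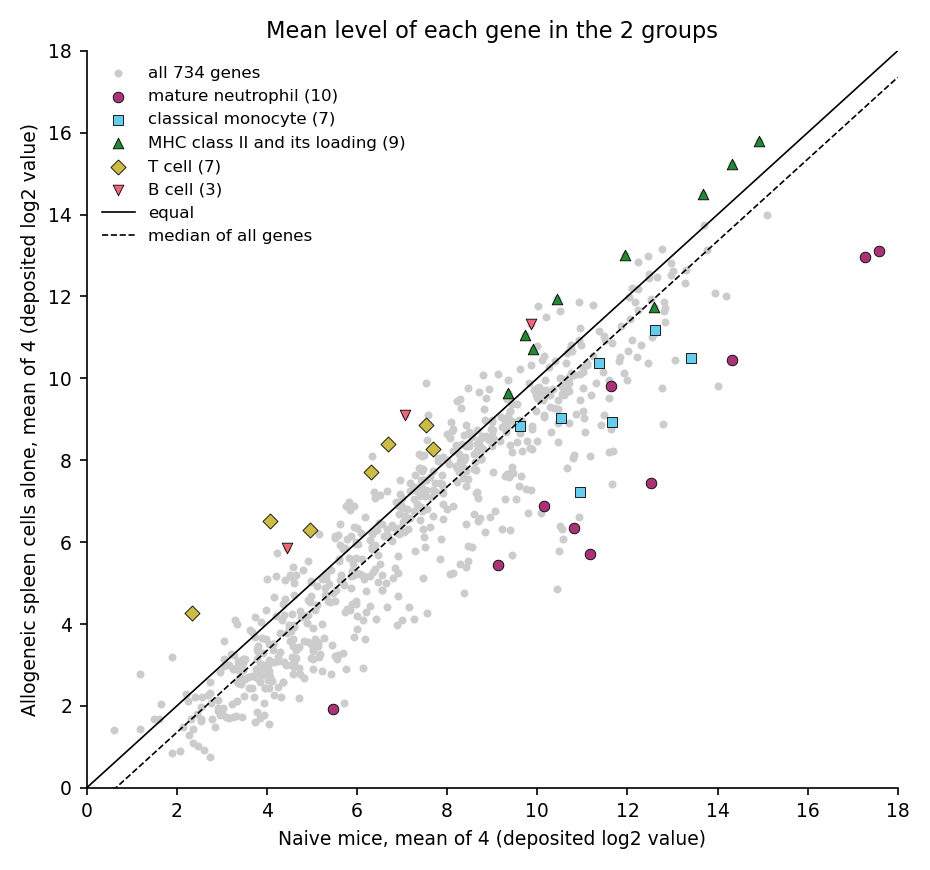
Mean deposited log2 level of each of the 734 genes in naive mice (horizontal axis) and after allogeneic spleen cells alone (vertical axis), 4 mice each, with members of 5 gene lists marked. Neutrophil genes lie far below the line of equal levels, T cell, B cell and most class II genes lie above it, and the dashed line marks the median difference of -0.65.

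The mature neutrophil genes fell together. Of the 15 genes on the list 10 were in the table, and all 10 were lower on both scales, with a median difference of -4.10 as deposited and -3.37 after centring. *S100a9*, which encodes a subunit of calprotectin, stood at 18.57, 17.35, 16.98 and 17.43 in the naive mice and at 14.12, 12.71, 13.17 and 12.40 after allogeneic cells (deposited log2 level). The groups were far apart, and replicate 1 was the highest mouse of each. The difference of -4.48 ± 0.41 (standard error) is a 22.3-fold lower level as deposited (adjusted *P* value 1.79e-07), and the centred difference was -3.75. With quantile normalization the differences of *S100a9* and *S100a8* were -2.78 and -2.57, still called, and with totals -3.40 and -3.23. *S100a8*, the gene of the partner subunit, moved with it, from 17.28 ± 0.69 (SD, n = 4) to 12.97 ± 0.68, and both genes together were the most abundant of the panel in naive mice. As shares of all counts, *S100a9* went from between 13.7% and 25.2% to between 1.03% and 3.35%.

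Receptors that guide and sustain neutrophils fell as well. *Cxcr2*, the receptor for the neutrophil-attracting chemokines, was at 11.55, 10.96, 10.90 and 11.28 in naive mice and at 6.34, 5.71, 5.20 and 5.56 after allogeneic cells (deposited log2 level). No value came near the other group, and the difference was -5.47 ± 0.29 (standard error), 44.4-fold as deposited (adjusted *P* value 6.51e-10) and 26.7-fold after centring. *Csf3r*, the receptor of the growth factor G-CSF, lay between 12.27 and 12.65 in naive mice and between 7.30 and 7.69 after allogeneic cells. Its difference was -5.07 ± 0.20 (standard error, adjusted *P* value 7.27e-11). *Cxcr1* was low, at a mean of 30 recovered counts in naive mice and 6 after allogeneic cells, and its difference of -3.53 rests on these few counts.

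Granule genes followed the same direction at several stages of neutrophil maturation. *Mmp9*, a gelatinase stored in late granules, differed by -4.48 (standard error 0.18), and *Camp*, the cathelicidin gene, by -3.88, with 14.32 ± 0.71 in naive mice and 10.44 ± 0.73 after allogeneic cells. *Mmp8* differed by -3.26 and *Ly6g*, the surface antigen used to sort mouse neutrophils, by -3.67. The primary granule genes, which are transcribed in precursors, were lower in 3 of 3 measured genes on both scales, with a median of -2.91 as deposited and -2.18 after centring. *Mpo*, myeloperoxidase, stood at 11.74, 10.30, 9.51 and 11.11 in the naive mice and at 8.74, 7.41, 7.62 and 7.44 after allogeneic cells. The naive mice were spread over more than 2 log2 units, and allo replicate 1 was above the other 3 mice of its group. *Elane* (-3.08) and *Ctsg* (-2.91) had the same order of mice at the top, with replicate 1 highest in each group. Without naive replicate 1 the median of the mature neutrophil genes was -3.76 as deposited, and 10 of 10 were again called lower.

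The 12 genes with the largest falls among those that did not overlap on either scale were *Acod1*, *Cxcr2*, *Csf3r*, *H2-Q10*, *Trem1*, *S100a9*, *Mmp9*, *S100a8*, *Hdc*, *C5ar1*, *Emp1* and *Il1b*. *Acod1* encodes the enzyme that makes itaconate, a metabolite of activated myeloid cells. It was at 10.72, 10.55, 10.24 and 10.21 in naive mice and at 5.50, 4.77, 4.89 and 4.23 after allogeneic cells, a difference of -5.58 as deposited and -4.85 after centring. *Trem1*, an amplifying receptor of neutrophils and monocytes, differed by -4.49, and *C5ar1*, the receptor of the complement fragment C5a, by -4.23. *Hdc*, the enzyme that makes histamine, differed by -4.30; it is known from basophils and mast cells and also from neutrophil precursors. *Emp1*, a membrane protein gene, had the smallest adjusted *P* value of the 12 (1.56e-11, difference -4.23). *H2-Q10*, a class Ib MHC gene with close relatives among the H2-Q genes that its probe may also detect, differed by -4.68, opposite in direction to the class II genes. *Il1b*, the gene of interleukin 1β, lay between 13.74 and 14.43 in naive mice and between 9.74 and 9.92 after allogeneic cells.

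**Figure D3:**
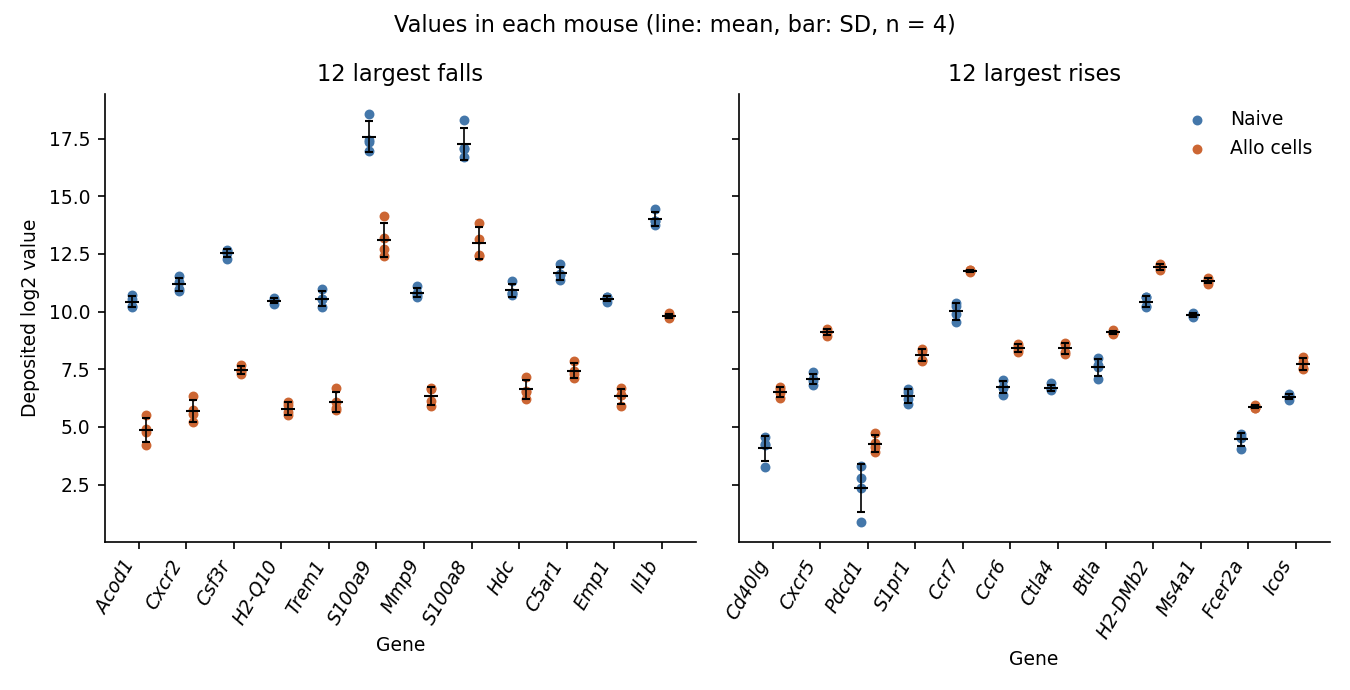
Deposited log2 value (vertical axis) in each mouse for the 12 genes with the largest falls and the 12 with the largest rises (horizontal axes), chosen among genes called in the same direction and without overlap on both scales; lines and bars are the mean and SD of 4 mice. In each of the 24 genes all 4 mice of a group lie on one side of all 4 mice of the other, which the choice of genes fixes.

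The gene of the selection marker itself was lower. *Itgam*, which encodes CD11b, stood at 11.59, 11.41, 11.23 and 11.45 in naive mice and at 8.80, 8.50, 9.16 and 8.95 after allogeneic cells. The groups were more than 2 log2 units apart, with a difference of -2.57 ± 0.16 (standard error, adjusted *P* value 2.31e-09) as deposited and -1.84 after centring. Recovered counts of *Itgam* averaged 1823 in naive mice and 694 after allogeneic cells. Neutrophil genes fell and T cell and B cell genes rose beside it, and the part of the cell types selected in these values was not tested.

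Monocyte genes were lower on the deposited scale and split after centring. Of the 7 measured genes of classical monocytes, 7 were lower as deposited (median -1.49) and 5 after centring (median -0.76). *Fn1*, fibronectin, fell most, from 10.95 ± 0.33 (SD, n = 4) to 7.21 ± 0.21, by 3.73 as deposited and by 3.00 after centring. *Ccr2*, the receptor that brings monocytes out of the marrow, was at 11.87, 11.79, 11.46 and 11.56 in naive mice and at 8.83, 9.20, 8.79 and 8.91 after allogeneic cells. The difference of -2.74 stayed below 0 after centring (-2.0). *Chil3*, a chitinase-like gene of monocytes and neutrophils, differed by -2.92 and -2.19 on the 2 scales, and *Cd14*, the coreceptor for lipopolysaccharide, by -1.49 and -0.76 (-0.41 with totals, not called). *Csf1r*, the receptor of the monocyte growth factor M-CSF, and *Ly6c1* were lower as deposited only. Their differences were -0.99 and -0.77, and after centring -0.26 and -0.04, neither called, with overlapping groups; with totals *Ly6c1* was called higher (0.31).

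Of the 3 measured genes of nonclassical monocytes, *Cx3cr1*, the fractalkine receptor, and *Itgal*, an integrin chain, were lower on both scales, by -1.61 and -1.34 as deposited and by -0.88 and -0.61 after centring; with totals *Itgal* was at -0.25 and not called. *Nr4a1*, a nuclear receptor on which these monocytes depend and which many cells also induce quickly on stimulation, was level as deposited (difference -0.02, adjusted *P* value 0.908) and higher after centring (0.71, adjusted *P* value 0.00242).

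T cell genes rose in full. The 7 measured genes of the 21 on the list were higher on both scales, with a median of 1.41 as deposited and 2.14 after centring, while the CD3 chains that define T cells are not among the genes analysed here. *Cd40lg*, the ligand through which helper T cells license dendritic cells and B cells, was at 4.21, 4.25, 4.55 and 3.26 in naive mice and at 6.72, 6.65, 6.26 and 6.47 after allogeneic cells. The groups lay well apart, with a difference of 2.46 ± 0.24 (standard error, adjusted *P* value 3.98e-07) as deposited. Its mean of 12 recovered counts in naive mice, against 135 after allogeneic cells, is not shown to lie above background. The size of this difference and its rank among the rises are therefore uncertain. *Ctla4*, an inhibitory receptor of T cells, lay between 6.60 and 6.89 in naive mice and between 8.15 and 8.64 after allogeneic cells (difference 1.70). *Icos* (1.41), *Lat* (1.35) and *Cd28* (1.33), which costimulate T cells or carry the receptor's signal, rose by similar amounts, and *Cd247*, the ζ chain shared by T cells and NK cells, by 0.59. *Pdcd1*, the gene of PD-1, was at 0.89, 2.34, 3.32 and 2.77 in naive mice and at 4.75, 4.30, 3.92 and 4.14 after allogeneic cells. It was the least precise of these, since naive replicate 1 was at the lowest recovered count of 1.

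The B cell genes rose likewise, 3 of 3 measured genes of 11 on the list on both scales, with a median of 1.48 as deposited and 2.22 after centring. *Ms4a1*, the gene of CD20, stood at 9.78, 9.88, 9.95 and 9.81 in naive mice and at 11.47, 11.30, 11.39 and 11.19 after allogeneic cells. The spread within groups was small beside the difference of 1.48 ± 0.13 (standard error, adjusted *P* value 1.02e-07). *Cxcr5*, which leads B cells and follicular helper T cells into follicles, had the second largest rise of the genes without overlap, from 7.07 ± 0.23 (SD, n = 4) to 9.11 ± 0.12. *Fcer2a*, the low-affinity IgE receptor of B cells, rose by 1.41. T cell and B cell genes together remained a small part of the sample, with T cell genes between 0.0344% and 0.0814% of counts in naive mice and between 0.261% and 0.333% after allogeneic cells, and B cell genes between 0.0654% and 0.126% and between 0.563% and 0.652%.

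Other large rises included *Ccr7*, *S1pr1*, *Ccr6* and *Btla*. *Ccr7*, which draws T cells and mature dendritic cells to the T cell zone, was at 9.56, 10.25, 10.36 and 9.88 in naive mice and at 11.80, 11.80, 11.70 and 11.77 after allogeneic cells (difference 1.75, 3.36-fold as deposited and 5.58-fold after centring). The injected mice were within 0.1 log2 units of each other. *S1pr1*, the receptor for the lipid that lets lymphocytes leave lymphoid organs, rose by 1.77, *Ccr6* by 1.71 and *Btla*, an inhibitory receptor of B cells and T cells, by 1.51. Of the 25 measured chemokine and chemoattractant receptors 6 were higher and 14 lower as deposited (median -0.98), and 9 were higher and 12 lower after centring (median -0.25). The lower ones were led by *Cxcr2*, *C5ar1* and *Ccr1* (-4.11). *Cxcr1* was lower too, but the size of its fall rests on few counts.

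Genes of MHC class II and its loading rose in 7 of 9 measured cases as deposited, against 11.9% of all genes, and in 8 of 9 after centring, against 33.0%, with medians of 0.88 and 1.61. Lists were matched by symbol, and *H2-Ea*, also on this list, stands in the table under the synonym *H2-Ea-ps*. It is left out of the counts, medians, shares and promoter matches given for the list. *H2-Ea-ps*, looked up after the values were seen, was higher under all 5 scalings described below (2.40 with totals). Which cells carried it was not measured. *Cd74*, the invariant chain that guides class II molecules to the endosome, was the most abundant gene after allogeneic cells. It was at 14.80, 15.15, 15.05 and 14.72 in naive mice and at 15.61, 15.73, 15.93 and 15.96 after allogeneic cells, a difference of 0.88 ± 0.13 (standard error, adjusted *P* value 2.82e-05). The groups did not overlap, and the mean recovered count went from 21040 to 85031. *H2-Aa*, whose promoter is printed above, was at 14.23, 14.49, 14.44 and 14.12 and then at 15.29, 15.33, 15.13 and 15.16 (difference 0.91), and its partner chain *H2-Ab1* differed by 0.84. *H2-Eb1* rose by 1.08, with allo replicates 3 and 4 (13.23 and 13.30) above 1 and 2 (12.71 and 12.84).

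The 2 largest rises of the list were in genes of peptide loading known from B cells, *H2-DMb2* (from 10.43 ± 0.25 to 11.94 ± 0.12, SD, n = 4) and *H2-Ob* (from 9.74 ± 0.22 to 11.07 ± 0.06), the β chain of the DO molecule that restrains loading. *H2-DMb1* differed by 0.28 as deposited, which narrowly missed the threshold (adjusted *P* value 0.0532), and by 1.01 after centring, where it was called. *Ctss*, the protease that trims the invariant chain and is also abundant in macrophages, went against the others as deposited, with a difference of -0.86, and was not called after centring (-0.12).

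Genes of conventional dendritic cells were higher in 5 of 9 measured cases as deposited and in 7 of 9 after centring, with medians of 0.96 and 1.69. *Flt3*, the growth factor receptor of dendritic cells, was at 8.67, 8.80, 8.81 and 8.57 in naive mice and at 9.71, 9.87, 9.46 and 9.66 after allogeneic cells. *Clec9a*, a receptor for dead cells on cross-presenting dendritic cells, rose by 1.12 and *Irf4*, a transcription factor of dendritic cells, B cells and T cells, by 1.29. *Xcr1*, a marker of the cross-presenting subset with a mean of 20 recovered counts in naive mice, rose by 0.53 with overlapping groups. Its adjusted *P* value was 0.0312, and the call was lost when any of allo replicates 1, 2 and 4 or naive replicates 1, 2 and 3 was left out. *Batf3*, a transcription factor of that subset which activated T cells also use, was lower by limma as deposited (-1.36) and after centring (-0.63) and not called with totals (-0.28, adjusted *P* value 0.186). Its centred call was lost without allo replicate 1 or naive replicate 1.

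*Irf8*, the factor that directs precursors toward dendritic cells and monocytes, depended on a single mouse. It was at 0.89 in naive replicate 1, a recovered count of 1, and at 9.64, 9.87 and 9.70 in the other naive mice, while the mice given allogeneic cells lay at 9.62, 9.82, 10.16 and 9.97. With all mice its difference was 2.37 ± 1.44 (standard error) and was not called. Without naive replicate 1 the difference was 0.15 as deposited (adjusted *P* value 0.302) and 0.87 after centring (adjusted *P* value 0.000186), and the median of the dendritic cell list was 0.42 and 1.14 on the 2 scales. *Itgax*, the gene of CD11c, was level as deposited (0.07) and higher after centring (0.81), with overlapping groups on both scales.

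Genes of spleen macrophages showed how much rests on the scale. Of 11 measured genes 3 were higher and 2 lower as deposited (median 0.07), and 7 were higher and 0 lower after centring (median 0.80; without naive replicate 1, 7 and 0). *Vcam1*, which red pulp macrophages carry, rose on both scales, by 0.56 and 1.30, as did *Cd163*, the haemoglobin scavenger receptor (0.63 and 1.37), and *Timd4*, a receptor for phosphatidylserine on dying cells (0.85 and 1.58). *C1qa*, *C1qb* and *C1qc*, the chains of the first complement component, differed by 0.08, 0.03 and 0.07 as deposited, none called, and by 0.81, 0.76 and 0.80 after centring, each called. *Mrc1*, the mannose receptor, went from 0.19 to 0.92 in the same way. *Adgre1*, the gene of F4/80, was lower as deposited (-0.87) and not called after centring (-0.14). *Mertk*, a receptor for the uptake of apoptotic cells, was lower as deposited (-0.43) and not called after centring, where its difference was 0.31, and it was called higher with totals (0.66); its call as deposited was lost without allo replicate 2 or naive replicate 4.

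Of the other genes for the uptake of dying cells, *Pros1*, the bridging ligand protein S, fell on both scales (-2.90 and -2.16), from a mean of 78 recovered counts to 24, and *Cd36*, a scavenger receptor, rose by 0.65 and 1.38. Over the 9 measured efferocytosis genes, 2 were higher and 3 lower as deposited and 6 higher and 1 lower after centring. The 16 measured genes of alternative activation and scavenging were mixed on both scales, with 3 higher and 8 lower as deposited and 6 higher and 5 lower after centring. Among them *Ccl24* was lower as deposited (-1.61) at a low level, from a mean of 27 recovered counts, and not called with totals (-0.53).

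**Figure D4:**
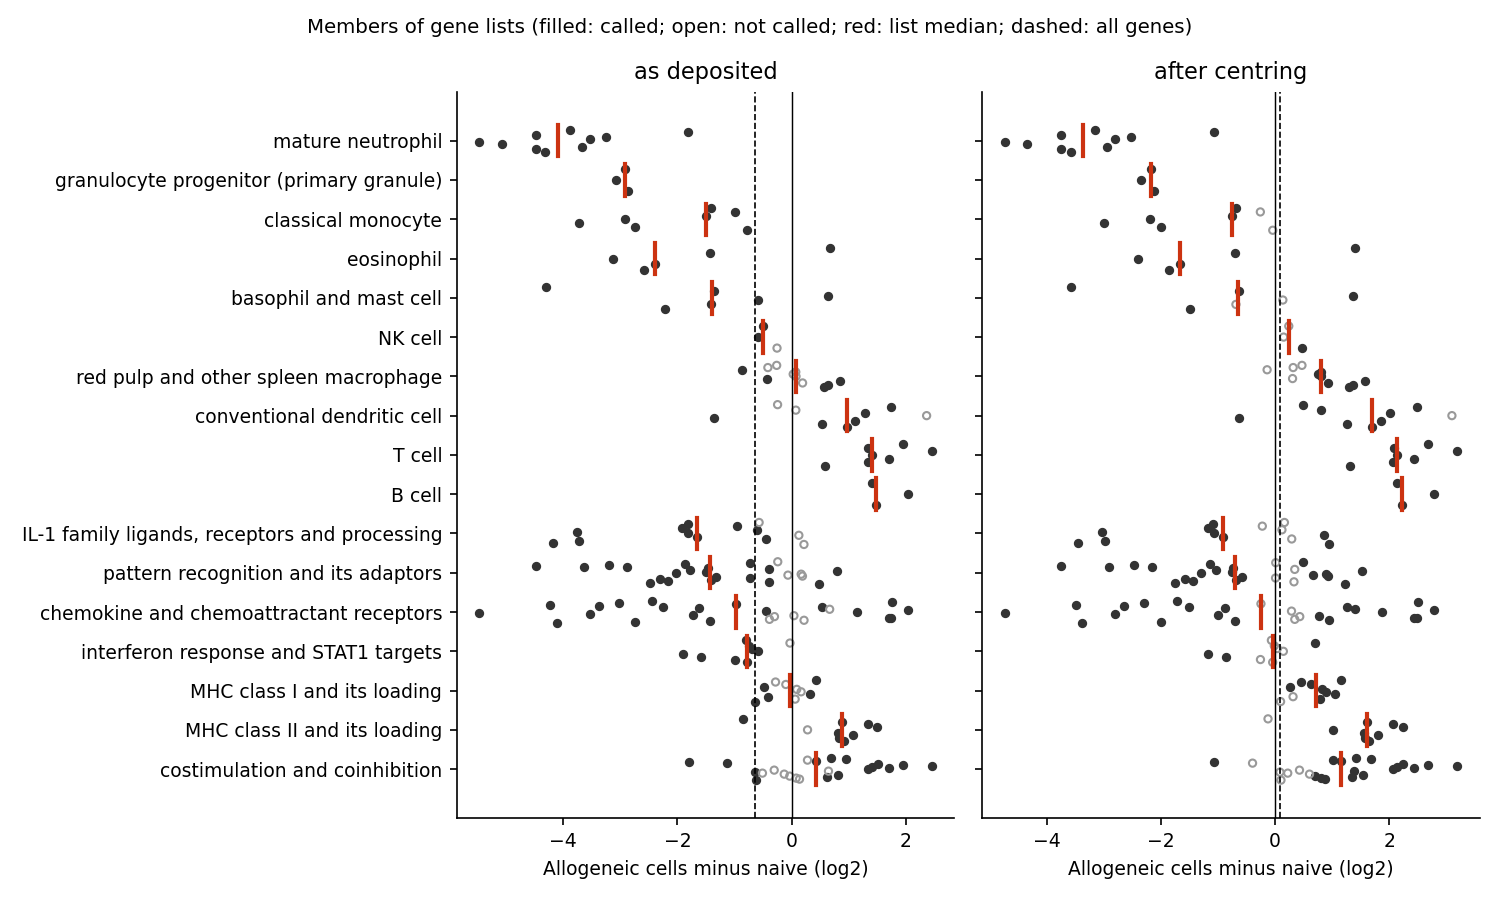
Difference between allogeneic cells and naive mice (log2, horizontal axes) for each measured member of 17 gene lists (vertical axis), as deposited on the left and after centring on the right. Neutrophil and primary granule genes lie below 0 and T cell and B cell genes above 0 on both scales, whereas lists near the dashed median of all genes, such as the interferon response, change sides or lose their calls.

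Genes of the IL-1 family were lower in 10 of 13 measured cases as deposited (58.4% of all genes were) and in 7 of 13 after centring (26.7%), with medians of -1.65 and -0.92. Beside *Il1b*, the receptor chain *Il1rap* fell from 9.45 ± 0.44 to 5.68 ± 0.12 (SD, n = 4), and the receptor antagonist *Il1rn* from 9.17 ± 0.16 to 5.45 ± 0.47. Ligand, antagonist and coreceptor thus fell alike. *Il1rl1*, the receptor of interleukin 33, differed by -1.91. After centring 2 of the 13 were higher, *Il1a* (0.95) and *Il1r1*, the receptor of interleukin 1 (0.86), which were not called as deposited (0.22 and 0.13).

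Of 17 measured inflammatory cytokines and mediators 12 were lower and 2 higher as deposited, and 5 lower and 3 higher after centring. *Osm*, oncostatin M, was at 11.82, 11.66, 11.39 and 11.50 in naive mice and at 8.59, 8.36, 7.88 and 7.96 after allogeneic cells, a difference of -3.39. *Csf1*, the gene of M-CSF, differed by -3.10 and *Ptgs2*, the inducible cyclooxygenase, by -2.06, both lower after centring as well. The 2 genes higher as deposited were *Il12a* (0.97) and *Il12b* (0.81), which encode the chains of interleukin 12. They were low in naive mice, with means of 13 and 34 recovered counts, and *Il12a* overlapped between the groups.

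Of 29 measured chemokines 16 were lower and 3 higher as deposited, shares close to the 58.4% and 11.9% of all genes, and 7 were lower and 6 higher after centring; 12 of the 29 had means under 20 recovered counts in both groups. *Cxcl2*, a ligand of CXCR2, fell from 12.80 ± 0.23 to 8.88 ± 0.43 (SD, n = 4), and *Cxcl3*, another such ligand, by 2.41. *Ccl6* differed by -2.70 and *Ccl2*, the ligand of CCR2, by -2.32. The 3 genes higher as deposited, named because they are few, were *Cxcl16* (0.63), *Ccl22* (0.59) and *Ccl5* (0.40). *Ccl5* was lost when any of allo replicates 2, 3 and 4 or naive replicates 1 and 4 was left out, and *Ccl22* without allo replicate 1 or 4 or naive replicate 4.

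Genes of pattern recognition were lower in 18 of 24 measured cases as deposited and in 14 of 24 after centring, with medians of -1.44 and -0.71. *Clec5a* (-3.63), *Trem2* (-3.21) and *Clec7a* (-2.88), receptors or coreceptors that signal through ITAM motifs, followed *Trem1*. *Trem2* was at a mean of 49 recovered counts in naive mice and 12 after allogeneic cells. Only *Tlr1* (0.49) and *Cd180* (0.79), a Toll-like receptor relative abundant on B cells, were higher as deposited. The receptors for IgG *Fcgr3* (-2.38) and *Fcgr1* (-2.17) fell, while *Fcer2a* rose, so that 5 of 6 measured Fc receptors were lower and 1 higher as deposited. *C3*, the central complement component, fell from 11.18 ± 0.43 to 8.09 ± 0.30 (SD, n = 4). Of the 8 measured complement genes 0 were higher and 4 lower as deposited, and 4 higher and 3 lower after centring (medians -0.48 and 0.26).

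Transcription factors and growth factor receptors of myeloid cells were lower in 11 and higher in 5 of 18 measured cases as deposited and lower in 6 and higher in 6 after centring; the shares of lower genes were near those of all genes (58.4% and 26.7%). *Cebpb*, a factor of neutrophils and inflammatory macrophages, was at 13.13, 13.01, 13.06 and 13.08 in naive mice and at 10.58, 10.24, 10.43 and 10.59 after allogeneic cells (difference -2.61, adjusted *P* value 8.12e-11). The naive mice hardly differed among themselves. *Irf4* and *Flt3*, described above, *Kit*, the stem cell factor receptor (0.63), and *Egr3*, an early response factor (0.79), were higher. In cytokine signalling, *Socs3*, a brake on signals from G-CSF and interleukin 6, differed by -1.67 and *Socs2* by 0.93. Over the 10 measured genes of JAK, STAT and SOCS signalling, 1 was higher and 6 lower as deposited, and 5 higher and 2 lower after centring (medians -0.51 and 0.23).

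The interferon response list was lower in 8 of 9 measured cases as deposited, with a median of -0.77 that lay near the median of all genes (-0.65), and in 2 of 9 after centring, with 1 higher and a median of -0.04. The genes lower on both scales were *Isg15*, a ubiquitin-like protein (-1.90 and -1.17), and *Irf7*, the factor that amplifies type I interferon (-1.60 and -0.86). Genes of MHC class I and its loading, which interferon also raises, were higher in 2 and lower in 3 of 10 measured cases as deposited (median -0.02) and higher in 8 and lower in 0 after centring (median 0.71). *H2-K1*, a classical class I gene, was at 13.59, 13.84, 13.76 and 13.57 in naive mice and at 13.70, 13.75, 13.78 and 13.77 after allogeneic cells. The values overlapped, with a difference of 0.06 as deposited (adjusted *P* value 0.533) and of 0.79 after centring. *H2-D1* was lower as deposited (-0.64), not called after centring (0.10) and called higher with quantile normalization (0.26) and totals (0.45). With totals 10 of 10 genes of the list were higher. *Cd1d1*, which presents lipids to NKT cells, and *H2-M3* rose on both scales, by 0.43 and 0.33 as deposited, and *H2-M3* lost its call as deposited without allo replicate 2 or 4 or naive replicate 1 or 2. *Tapbp*, the gene of tapasin, was lower as deposited (-0.48) and higher after centring (0.25), where the call was lost without naive replicate 1.

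Of 23 measured costimulatory and coinhibitory genes 11 were higher and 4 lower as deposited, and 16 higher and 1 lower after centring (medians 0.43 and 1.16). The list shares its largest rises, *Cd40lg*, *Pdcd1* and *Ctla4*, with the T cell list. *Vsir*, the gene of the inhibitory receptor VISTA of myeloid cells, was the gene that fell on both scales, from 11.93 ± 0.20 to 10.13 ± 0.04 (SD, n = 4). In NF-κB and TNF receptor signalling, 6 of 12 measured genes were lower and 1 higher as deposited, and 3 lower and 8 higher after centring. *Tnfrsf1a*, a receptor of TNF, fell on both scales (-2.01 and -1.28), and *Traf1*, an adaptor induced by NF-κB, rose on both (0.60 and 1.33).

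The 28 genes that were lower as deposited and higher after centring had small differences on each. The 6 for which the smaller of the 2 differences was largest were *Ercc1*, *Birc3*, *Tep1*, *Cytip*, *Acly* and *Map2k2*. *Birc3*, an inhibitor of apoptosis in the NF-κB pathway, differed by -0.38 as deposited and by 0.36 after centring, and *Acly*, the enzyme that makes cytosolic acetyl-CoA, by -0.38 and 0.35. Their mean recovered counts rose, from 664 to 1138 and from 707 to 1195. *Map2k2* and *Cytip*, a signalling kinase and an adhesion regulator, were at -0.38 and 0.35, and so was *Tep1*, a telomerase-associated protein gene. *Cytip* lost its call as deposited without allo replicate 3 (limma, adjusted *P* value 0.0537). *Ercc1*, a DNA repair gene, was at -0.36 and 0.37 with overlapping groups on both scales, and left out 1 at a time, allo replicate 2 or 4 or naive replicate 1 or 3 took its call as deposited. Its centred call was lost without allo replicate 3 or naive replicate 2 or 4, and that of *Cytip* without allo replicate 2.

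Of other granulocytes, eosinophil genes were lower in 4 of 5 measured cases on both scales, with medians of -2.39 and -1.66. *Siglecf*, the receptor used to identify eosinophils, was at 7.55, 7.05, 7.10 and 7.37 in naive mice and at 4.40, 3.41, 4.59 and 4.14 after allogeneic cells. *Prg2* (-2.59) and *Epx* (-2.39), granule proteins of eosinophils, varied more, with naive replicates 1 and 4 above 2 and 3 in both, and *Ccr3*, the eotaxin receptor, was at -1.43 as deposited and, with totals, at -0.35, where it was not called. *Il5ra*, which B cells also carry, rose by 0.67 from a mean of 15 recovered counts, with overlapping groups. Basophil and mast cell genes were lower in 5 and higher in 1 (*Kit*) of 6 measured cases as deposited and lower in 3 after centring, with *Fcer1a*, the high-affinity IgE receptor chain, at -2.22 and -1.49. *Ms4a2* and *Gata2* differed by -1.42 and -1.36 as deposited, and of these *Gata2* was called after centring (-0.62); with totals they were at -0.33 and -0.27, neither called.

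NK cell genes did not share the direction of the T cell genes as deposited. *Gzma* (-0.58) and *Nkg7* (-0.49), which encode proteins of cytotoxic granules, were lower with overlapping groups, and *Klrk1*, the activating receptor NKG2D, was not called (-0.26). After centring *Gzma* and *Nkg7* were not called (0.15 and 0.24) and *Klrk1* was higher (0.48), a call lost without any 1 of allo replicates 2, 3 and 4 and naive replicates 1 and 4. *Nkg7* gained a centred call without allo replicate 1 (0.48). The call of *Nkg7* as deposited was lost without allo replicate 1 or 2 or naive replicate 2 or 3, and that of *Gzma* without allo replicate 1. Of 3 measured plasmacytoid dendritic cell genes 2 were lower and 0 higher as deposited (median -0.46), and 1 lower and 1 higher after centring (median 0.28). The 1 measured gene of the erythroid and platelet list was not called as deposited (-0.22) and was higher after centring (0.51). Plasma cell genes are not among the genes analysed here.

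Adhesion, matrix and lipid mediator genes were lower on the deposited scale in most cases. Of 14 measured integrins and adhesion genes 11 were lower as deposited and 7 after centring. The largest falls were in *Selp*, P-selectin (-2.73), *Itgam* (-2.57), *Itga5*, the fibronectin receptor chain (-2.13), and *Selplg*, the ligand of P-selectin (-1.45). Of 17 measured matrix genes, proteases and wound factors 13 were lower as deposited and 7 after centring, with *Adam8* at -2.74 beside *Fn1*, *Mmp8* and *Mmp9*. Among lipid mediator genes, *Alox5*, 5-lipoxygenase, fell from 9.22 ± 0.27 to 6.32 ± 0.27 (SD, n = 4) as deposited. Its activating protein *Alox5ap* fell by 2.03 and the leukotriene B4 receptor *Ltb4r1* by 3.03, and each of these genes was lower after centring as well. *Lta4h*, the hydrolase that makes leukotriene B4 and a gene chosen after its values were seen, was lower as deposited (-1.09) and not called after centring (-0.36). These 4 belong to 13 measured genes of lipid mediators and lipid handling, of which 1 was higher and 11 lower as deposited, and 2 higher and 6 lower after centring.

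Cell division genes were lower in 4 of 4 measured cases as deposited (median -0.69) and called in 0 of 4 after centring (median 0.04), while scaling to totals called 3 of 4 higher (median 0.40). *Birc5*, survivin, was at 7.46, 6.34, 5.69 and 6.58 in naive mice and at 5.77, 5.38, 5.25 and 5.46 after allogeneic cells. The groups overlapped, and its mean recovered count was 65 in both. *Top2a*, a topoisomerase of dividing cells, differed by -0.70 and 0.03, and by 0.39 with totals, where it was called higher. Of 4 measured cell death regulators 1 was higher and 2 lower as deposited, and 2 higher and 1 lower after centring. *Bcl2*, which protects lymphocytes, rose by 0.54 and 1.28 on the 2 scales and *Fas*, the death receptor, differed by -1.66 and -0.93.

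Genes near the lower end of the assay need care on the deposited scale. In 149 genes the mean recovered count was under 20 in both groups, and 80 of these were lower and 2 higher as deposited (median -0.97), against 17 lower and 3 higher after centring (median -0.24). Counts this low lie where probes of such panels give background signal, and no background value is given in the deposited table. Without all genes under 20 mean recovered counts in either group, a filter added once the values were known, 322 genes were lower and 80 higher as deposited and 158 lower and 222 higher after centring.

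The number of genes called in each direction depended on how the mice were scaled to each other. Scaling the recovered counts to their totals gave 334 higher and 132 lower genes, median-of-ratios size factors 219 and 219, and quantile normalization 251 and 192. Under all 5 scalings, 87 genes were higher and 132 were lower. The share of higher genes among the calls was 16.9% as deposited, 55.3% after centring, 50% with median-of-ratios size factors, 56.7% with quantile normalization and 71.7% with totals. The median difference over all genes moved from -0.65 as deposited to 0.44 with totals. Over the 5 scalings the median difference lay between -4.10 and -2.84 for the mature neutrophil genes, between 0.88 and 1.96 for MHC class II and its loading, between 1.41 and 2.49 for T cell genes and between 1.48 and 2.57 for B cell genes. With totals several lists with more lower than higher calls as deposited held more higher ones, among them alternative activation and scavenging (9 higher, 2 lower), NF-κB and TNF receptor signalling (8 and 1), JAK, STAT and SOCS signalling (7 and 1), chemokines (8 and 5), inflammatory mediators (6 and 4) and integrins and adhesion (6 and 4).

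**Figure D5:**
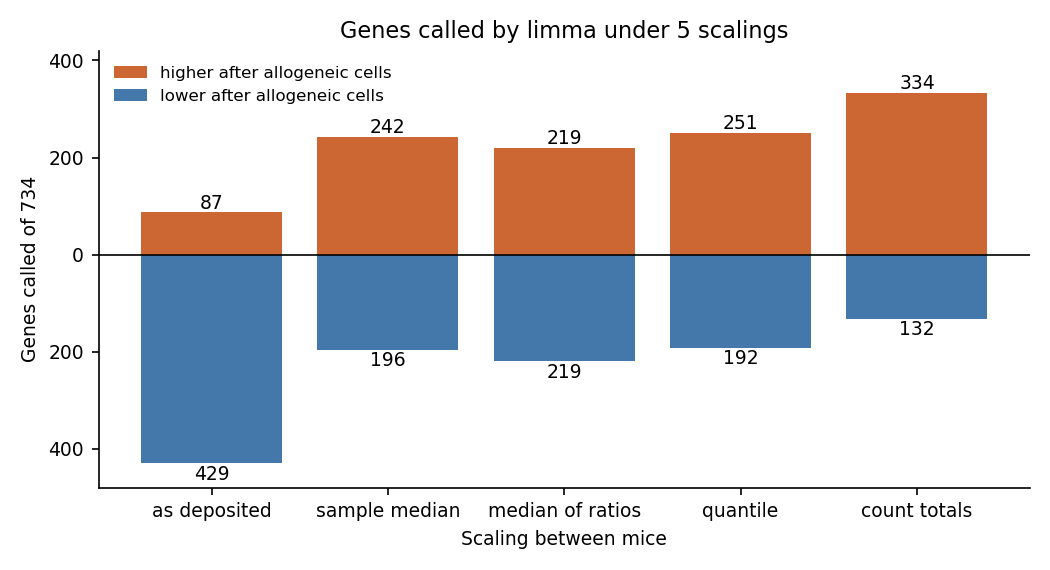
Number of genes of 734 called higher (up) or lower (down) after allogeneic cells (vertical axis; limma, adjusted *P* value under 0.05) under 5 scalings between mice (horizontal axis). The deposited scale gives 87 higher and 429 lower genes, and scaling by count totals gives 334 and 132.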

How the data were processed

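Gene expression was measured with the NanoString nCounter Myeloid Innate Immunity panel, which counts mRNA molecules with colour-coded probes and without amplification. The authors normalized the raw counts in the R package limma and deposited log2 values, 1 column per sample. What each sample's scaling factor was computed from, and whether background was subtracted, is not given in the sources used here. The counts behind the deposited log2 values could be recovered (100% of values were whole to within 0.001); the lowest, 1, held for 0.843% of values and may stand for 0. Of the symbols, 724 matched RefSeq (GRCm38.p6) directly and 9 as synonyms, and 1 did not match.

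On deposited and on median-centred values, limma (3.58.1, in R 4.3.3) estimated 4 group means from all 16 samples, with no filter. *P* values were two-sided, adjusted over 734 genes (Benjamini-Hochberg) and called at 0.05. Samples are numbered within groups, and whether cells of several mice were pooled is not stated, so *P* values measure the spread between these samples. Data were simulated for these samples, with 200 of 734 genes changed, evenly up and down. Of genes changed 2-fold 73% were recovered and of those changed 4-fold 92%, and 4.62% of calls were false. The simulation gave both groups the same base level, without the shift of scale seen between the groups here. Its share of false calls therefore does not cover errors that come from the scaling. The gene lists and the members described were chosen with earlier results of these data known. Named were the 12 largest rises and falls without overlap on both scales, up to 6 genes of opposite direction on the 2 scales, the 6 most abundant genes of each group, and up to 4 members of each list with its defining markers; a gene that this rule names is not reported here. As alternatives, *P* values were left unadjusted, changes under 1.5-fold or the lowest 25% of genes were left out, the 2 groups were fitted alone, moderation was trended and robust, arrays were weighted, other scalings, limma-voom and a replicate block were used, and each sample was left out in turn. Scripts ran in Python 3.11.15 with matplotlib 3.10.9, numpy 2.4.6, scipy 1.17.1 and pandas 2.3.3.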

Additional observations from a re-analysis of the deposited data

Results flagged for a closer look

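In 9 of 312 sets of 4 mice looked at (156 named genes in each group), 1 mouse stood far from the other 3; chance gives this for about 1 set in 20. *Irf8* was at 0.89 in naive replicate 1 and between 9.64 and 9.87 in the other naive mice. The same mouse was above the others for *Hdc* (11.33 against 10.73 to 10.82) and *Pros1* (7.33 against 6.69 to 6.79). *Xcr1* was at 5.58 in naive replicate 4 and between 4.48 and 4.59 in the others. After allogeneic cells, replicate 1 was high for *Mpo* (8.74 against 7.41 to 7.62) and *Isg15* (7.18 against 6.46 to 6.56) and low for *Itgal* (10.57 against 10.70 to 10.72). Replicate 4 of that group was low for *Ly6c1* (8.74 against 8.86 to 8.88) and high for *Tnfrsf1a* (9.21 against 8.93 to 8.98). All are deposited log2 levels.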

How the results depend on the processing

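The total of 516 genes called as deposited lay between 402 and 534 under the alternatives that keep the deposited scaling (402 with the added filter on genes under 20 counts), and the 438 called after centring lay between 356 and 467, each within 1.5 times. The division by direction as deposited moved with the scaling, to 251 higher and 192 lower genes with quantile normalization, 334 and 132 with totals, 219 and 219 with median-of-ratios size factors, and 339 and 137 with limma-voom. With each mouse left out, 481 to 497 genes were called as deposited (75 to 90 higher, 399 to 417 lower) and 418 to 444 after centring (226 to 243 higher, 185 to 210 lower). No pairing of mice by replicate number was assumed in the main fits. The correlation of deviations from the group means was 0.17, -0.04, -0.03 and -0.06 for the 4 same-numbered pairs. For differently numbered pairs it lay between -0.26 and 0.18. These few values can neither show nor exclude a pairing. With a replicate block, 531 genes were called as deposited and 450 after centring, and of the named genes only *H2-DMb1* gained its call.

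Of 156 named genes, 19 changed sign under at least 1 of the 3 scalings run for each gene. After centring these were *Nr4a1* (0.71), *Mertk* (0.31), *H2-D1* (0.10), *Tapbp* (0.25), *Ercc1* (0.37), *Birc3* (0.36), *Tep1* (0.35), *Cytip* (0.35), *Acly* (0.35), *Map2k2* (0.35), *Gzma* (0.15), *Nkg7* (0.24), *Klrk1* (0.48) and *Top2a* (0.034). With quantile normalization they were *Nr4a1* (0.83), *Adgre1* (0.033), *Mertk* (0.24), *H2-D1* (0.26), *Tapbp* (0.38), *Ercc1* (0.27), *Birc3* (0.49), *Tep1* (0.30), *Cytip* (0.24), *Acly* (0.50), *Map2k2* (0.28), *Gzma* (0.15), *Nkg7* (0.35), *Klrk1* (0.59) and *Top2a* (0.0019). With totals they were *Csf1r* (0.093), *Ly6c1* (0.31), *Nr4a1* (1.06), *Ctss* (0.23), *Adgre1* (0.21), *Mertk* (0.66), *H2-D1* (0.45), *Tapbp* (0.61), *Ercc1* (0.72), *Birc3* (0.71), *Tep1* (0.71), *Cytip* (0.70), *Acly* (0.70), *Map2k2* (0.70), *Gzma* (0.50), *Nkg7* (0.59), *Klrk1* (0.83), *Birc5* (0.030) and *Top2a* (0.39). Changes of sign were counted where a gene was called on at least 1 of the 2 scales compared. *Nr4a1* and *Klrk1* were not called as deposited. Not called after centring were *Mertk*, *H2-D1*, *Gzma*, *Nkg7* and *Top2a*. With quantile normalization, *Adgre1*, *Mertk*, *Ercc1*, *Cytip*, *Gzma*, *Nkg7* and *Top2a* were not called, and with totals *Csf1r*, *Ctss*, *Adgre1*, *Gzma*, *Nkg7* and *Birc5*. Leaving out a mouse turned 0 of the 156 as deposited and ended the call of 9 in at least 1 fit. *H2-DMb1* gained a call as deposited without allo replicate 3 (0.33) or naive replicate 1 (0.34). Of the 143 called after centring, leaving out a mouse turned 0 and ended the call of 5 (*Batf3*, *Cytip*, *Ercc1*, *Klrk1* and *Tapbp*). After centring 6 others gained a call (*Birc5*, *Csf1r*, *Irf8*, *Lta4h*, *Ms4a2* and *Nkg7*). These centred fits were alternatives added once the values were known. As deposited, the fit of the 2 groups alone ended that of 5. Without turning the direction, totals ended the call of 9 (*Dusp1*, *Cd14*, *Itgal*, *Batf3*, *Ccr3*, *Ms4a2*, *Gata2*, *Ccl24* and *Lta4h*), quantile normalization that of 7 (*Dusp1*, *Csf1r*, *Ly6c1*, *Ctss*, *Ms4a2*, *Birc5* and *Lta4h*) and centring that of 7 (*Csf1r*, *Ly6c1*, *Ctss*, *Adgre1*, *Ms4a2*, *Birc5* and *Lta4h*). The cause of these changes was not tested. Genes with few counts, such as *Pdcd1* and *Cxcr1*, have wide counting error, and the number of mice limits the precision of all.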

Other observations

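Of the 441 genes whose symbols are in none of the lists, *H2-Ea-ps* among them, 98 were lower and 36 higher on both scales. The genes named here were chosen after their values were seen and were called in the same direction under all 5 scalings. *Anxa1*, annexin A1, which restrains neutrophil entry into tissue, was at 12.57, 11.52, 11.10 and 11.56 in naive mice and at 8.65, 8.10, 8.17 and 7.95 after allogeneic cells (deposited log2 level). *Chil4* fell by 2.99, *Pglyrp1*, a peptidoglycan-binding granule protein, by 2.38 and *S100a11* by 2.16. *Il15*, a cytokine that sustains NK cells and memory T cells, fell by 2.88, and *Id1*, an inhibitor of differentiation factors, by 2.66.

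Among the genes that rose, *Cd69*, an early activation marker that holds lymphocytes in tissue, was at 10.03, 10.31, 10.29 and 10.17 in naive mice and at 11.53, 11.66, 11.43 and 11.33 after allogeneic cells. *Myc*, which drives growth, rose by 1.28, *Cd38*, an ectoenzyme, by 1.23, *Gpr183*, an oxysterol receptor that positions B cells and dendritic cells, by 1.21 and *Cd83*, a marker of mature dendritic cells and activated B cells, by 1.16. *Ets1* (0.93), *Ltb*, lymphotoxin β (0.61), *Gata3*, a factor of T cells (0.58), and *Jun* (0.55) rose by less. Which cells carried these transcripts was not measured.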
